A study of Mus musculus with 16 samples.

Results

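Immediate early genes are a class of genes whose transcription starts within minutes of a stimulus, because the factors that switch them on are already present in the cell and need only be phosphorylated. Growth factors, stress signals and calcium act through MAP kinases on serum response factor with its ternary complex partners and on CREB, and the transcripts decay again quickly. Several of the products are transcription factors of the AP-1 and zinc finger families, while others shut the response down. In the kidney they are known to respond to ischaemia, to injury of the tubule and to handling of the tissue. The 10 genes described here are Fos, Fosb, Jun, Junb, Atf3, Egr1, Klf6, Ier2, Dusp1 and Zfp36. They were chosen by gene name as a textbook set, with earlier results of these data known, and all 10 were among the 30277 genes of the kidney table.

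Polyadenylated RNA was sequenced from kidneys of C57BL/6J mice that carried a recessive mutation of Kl, the gene for Klotho, a co-receptor for the phosphate hormone FGF23 that is made in the renal tubule. The 4 groups were male KlKl, male control, female KlKl and female control, with 4 animals in each. KlKl animals were homozygous for the mutation and had kidney failure. The male controls were +/Kl in 2 animals and +/+ in the other two, and the female controls were +/Kl in 4 of 4 animals, so that carriers of 1 mutant allele made up most of the controls. The animals were 46 to 59 days old, and all kidneys had been perfused, dissected and flash frozen. In each group the libraries of replicates 1 and 2 had names beginning with CFK and those of replicates 3 and 4 had names beginning with CFdk, and what this difference stands for is not given in the sources used here. Among male controls the CFK kidneys were +/Kl and the CFdk kidneys +/+. Name series and control genotype therefore cannot be told apart in males. In these bulk tissue samples, fewer cells of a type and less RNA per cell cannot be told apart.

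The libraries held 13026713 to 20104893 reads in males and 8208067 to 14503456 in females, as recovered from the deposited values. The sample numbers within the library names repeat between the sexes, and whether males and females were sequenced in separate runs is not given in the sources used here, so sex and run cannot be told apart. Kl itself was lower in KlKl kidneys of both sexes, at 0.258 to 1.49 TPM in male KlKl against 7.82 to 11.7 TPM in male control kidneys, and at 0.0728 to 0.222 TPM in female KlKl against 2.04 to 5.73 TPM in female control kidneys. The log2 difference on reads was −3.96 in males and −4.77 in females (limma, adjusted p = 0.00421 and 0.00415). The tubule markers on the lists were present in every group. A pair of libraries stood apart. Female control 3 had the fewest reads, with 15.2% of its TPM in ribosomal RNA against 3.32% to 6.18% in the other libraries, and male KlKl 3 had the highest summed level of neutrophil markers, 11.7 reads per 1000000 (RPM) against 1.03 to 3.74 in the other 15 libraries.

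The deposited TPM were scaled by the whole span of a gene, introns included, to a fixed total of 309446 per library, in which mitochondrial and pseudogene transcripts held most of the weight. On that scale the median of all 8059 tested genes was 0.18 higher on the log2 scale in KlKl than in control males and 0.105 higher in KlKl than in control females. Values for each animal are therefore given as recovered RPM, a scale on which the same median was −0.01 in males and 0.01 in females, and differences are given on both scales. On reads, 9 of the 10 members passed a filter of 10 reads in at least 4 libraries, and on TPM 6 members passed a filter of 1 TPM in at least 4 libraries. Fosb, with 1 to 5 reads per library, passed neither, and Fos, Atf3 and Dusp1 passed only on reads.

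Per kilobase of exon, using the exon lengths of GENCODE release M21, the members spanned a wide range of levels in the kidney. Klf6, a zinc finger transcription factor, averaged 13.1 ± 3.71 RPM per kilobase of exon over the 16 kidneys (SD, n = 16). Dusp1, a nuclear phosphatase that inactivates MAP kinases, followed at 11.8 ± 2.64, Ier2, a nuclear protein that takes part in transcriptional control, at 10.9 ± 2.44, and Jun, a DNA-binding partner within AP-1, at 10.7 ± 1.45. These neighbours differ by less than the SD of Klf6. Zfp36, which binds AU-rich elements and speeds the decay of cytokine and early gene transcripts, averaged 8.19 ± 2.29 per kilobase, and Junb, another AP-1 partner, 7.92 ± 1.41, which is also within their spread. Egr1, a zinc finger transcription factor, averaged 2.16 ± 1.19 per kilobase. The lowest members were Atf3, a stress-induced factor that pairs with Jun proteins, at 0.880 ± 0.353, Fos, the archetype of the class, at 0.680 ± 0.427, and Fosb at 0.0404 ± 0.0240. Atf3 and Fos did not differ beyond their spread. Fos was thus an order of magnitude below Jun, its AP-1 partner, in these kidneys.

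**Figure D1:**
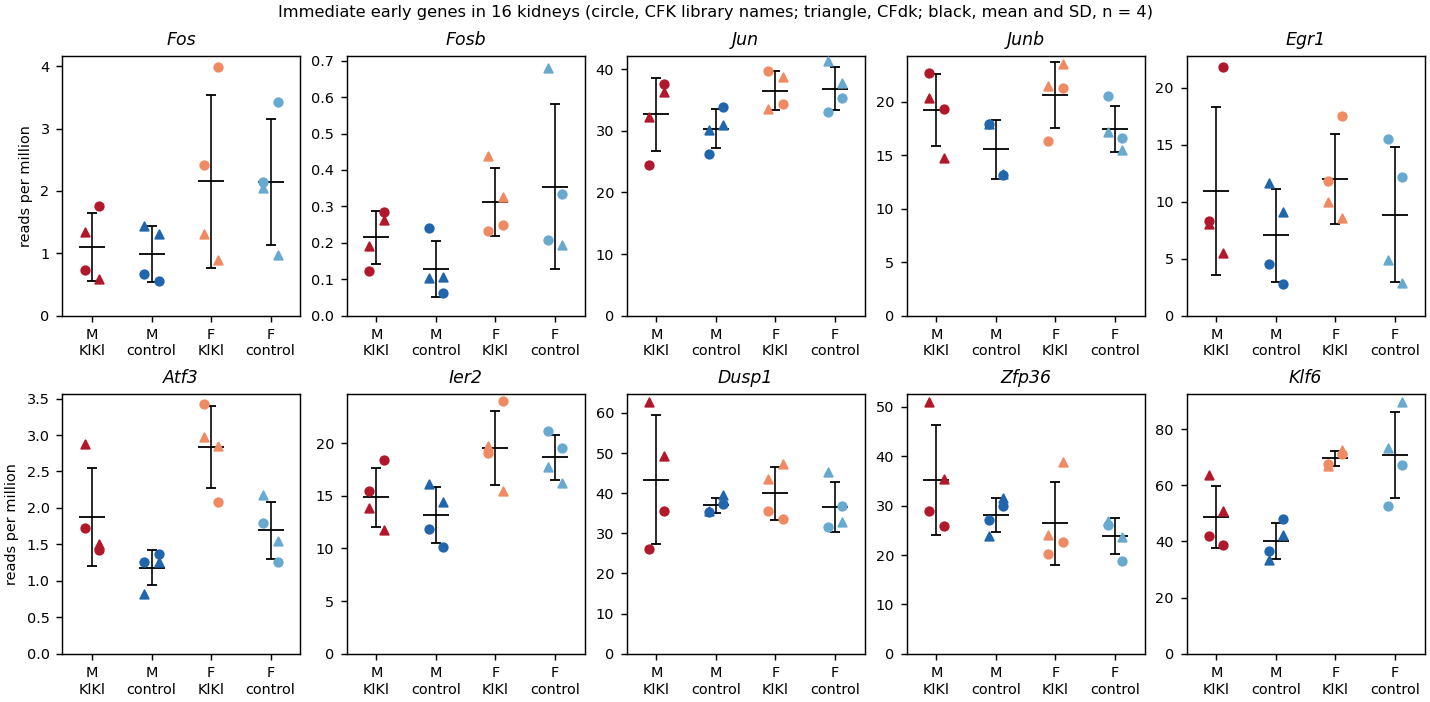
Recovered RPM (TMM-scaled) of each member in every kidney, by group, with M for males and F for females. Circles are CFK and triangles CFdk libraries, and the black marks are group means with SD (n = 4). Atf3 lies higher in KlKl than in control kidneys of males without overlap, Klf6 lies lower in males than in females, and Egr1 and Fos scatter widely within every group.

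In the deposited annotation (mm39), Fos lies at chr12:85520664-85524048 on the plus strand, Fosb at chr7:19036621-19043977 on the minus strand, Jun at chr4:94937271-94940460 on the minus strand and Junb at chr8:85701113-85705348 on the minus strand. Atf3 lies at chr1:190902493-190950237 on the minus strand, Ier2 at chr8:85387960-85389484 on the minus strand, Zfp36 at chr7:28076209-28079679 on the minus strand and Klf6 at chr13:5911481-5920394 on the plus strand. Dusp1 has an annotated span of 56540 bases, chr17:26724564-26781103 on the minus strand, and Atf3 one of 47745 bases, against 3311 and 2154 bases of exon, so both received small TPM. Dusp1 overlaps Ergic1 on the opposite strand, which had 194 to 1405 reads per library, and Junb overlaps Prdx2 on the opposite strand, which had 2368 to 3597 reads. Whether the counting used the strand is not given in the sources used here, so the levels of Dusp1 and Junb carry that uncertainty.

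The upstream sequences of 4 members are shown because their transcripts carry the comparisons below. Fos was correlated with each other member, and Atf3 had the largest difference on reads between KlKl and control kidneys among the members. The feedback regulators Dusp1 and Zfp36 were both the highest of their sex on reads in male KlKl 3 and in female KlKl 4. Each sequence is the 250 bases before the annotated start, 5′ to 3′ on the strand of the gene, from RefSeq on GRCm38.p6. Of the 10 members, 8 had a sequence that was used (Egr1 and Ier2 were not used here). Capitals mark the letters of 5 motifs found on either strand, namely TGACG (the core site of CREB and ATF proteins), its palindrome TGACGTCA (which contains it), TATAAA, GCGNGGGCG (the Egr element) and the CArG box of serum response factor. The AP-1 element TGANTCA was also searched.
Fos, chr12:85473640-85473889, plus strand: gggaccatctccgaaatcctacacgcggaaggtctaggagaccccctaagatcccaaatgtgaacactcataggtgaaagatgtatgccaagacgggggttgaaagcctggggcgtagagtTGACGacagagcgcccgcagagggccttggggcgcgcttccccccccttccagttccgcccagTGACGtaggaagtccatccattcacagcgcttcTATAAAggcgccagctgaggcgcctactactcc
Atf3, chr1:191183334-191183583, minus strand: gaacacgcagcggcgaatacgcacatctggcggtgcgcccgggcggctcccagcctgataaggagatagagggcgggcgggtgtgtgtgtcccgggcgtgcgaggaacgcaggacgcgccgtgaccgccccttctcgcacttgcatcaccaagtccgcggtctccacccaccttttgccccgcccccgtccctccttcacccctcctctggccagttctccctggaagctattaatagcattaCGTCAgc
Dusp1, chr17:26508473-26508722, minus strand: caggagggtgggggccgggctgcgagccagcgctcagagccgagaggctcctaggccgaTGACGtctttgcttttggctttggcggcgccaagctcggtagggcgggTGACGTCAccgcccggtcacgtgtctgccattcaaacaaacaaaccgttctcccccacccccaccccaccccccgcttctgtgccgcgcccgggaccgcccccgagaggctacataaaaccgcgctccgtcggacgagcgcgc
Zfp36, chr7:28379229-28379478, minus strand: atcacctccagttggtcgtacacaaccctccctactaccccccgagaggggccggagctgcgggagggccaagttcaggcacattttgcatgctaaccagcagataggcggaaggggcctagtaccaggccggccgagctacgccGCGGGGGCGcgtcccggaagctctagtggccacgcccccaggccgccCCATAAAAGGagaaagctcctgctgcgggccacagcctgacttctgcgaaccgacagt

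TGACG stood in 5 of the 8 members' windows (Fos, Fosb, Junb, Atf3 and Dusp1), against 17.9% of 27025 RefSeq promoter windows of the same length. The full palindrome TGACGTCA stood in Dusp1 only, at positions −143 to −136 from its start, against 1.62% of windows, and TATAAA in Fos only, at −33 to −28, against 13% of windows. Zfp36 held the CArG box at −58 to −49 (1.4% of windows), and it shared GCGNGGGCG with Fosb (4.65% of windows). TGANTCA stood in 0 of the 8 windows, against 6.87% of all windows. These matches describe the letters of these windows and no more.

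The first comparison asks whether these genes differ between kidneys of KlKl mice and those of their controls. No member passed an adjusted p of 0.05 in males or in females, on TPM or on reads. In males, 0 of 6 members on TPM and 0 of 9 on reads passed, where 0.0993% of 8059 and 0.0340% of 17648 tested genes did. In females 0 of 6 and 0 of 9 passed, where 0.0124% and 0.0113% of tested genes did. Averaged over both sexes it was again 0 of 6 and 0 of 9 (0.0372% and 0.0227% of tested genes). In the test of whether the difference itself differed between males and females it was also 0 of 6 and 0 of 9 (0% of tested genes on either scale). At an unadjusted p under 0.05 the members counted 4 of 6 in males on TPM (Jun, Junb, Zfp36 and Klf6, where 19.9% of tested genes did), 0 of 6 in females on TPM (4.67%), and 1 of 9 on reads in either sex, in both cases Atf3 (6.19% in males and 2.54% in females). Averaged over the sexes they counted 5 of 6 on TPM (26.3% of tested genes) and 2 of 9 on reads (5.91%), and for the difference between the sexes 0 of 6 (2.17%) and 0 of 9 (2.44%).

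More of the members' differences were above 0 than below it. On TPM, 6 of 6 were higher in KlKl kidneys in both sexes, where 90.9% of all tested genes were in males and 82.0% in females. On reads, 9 of 9 were higher in KlKl males, where 47.0% of tested genes were, with a median log2 difference of 0.27 against −0.01 for all tested genes. In females 7 of 9 were higher on reads, where 52.8% of tested genes were, with a median of 0.12 against 0.01. Some of these signs rest on values close to 0, as for Klf6 at 0.00068 and Jun at −0.003 in females on reads. Without male KlKl 3 and female control 3, Fos at −0.007 and Dusp1 at −0.05 were lower in KlKl males on reads. The 4 control kidneys of a sex stand in all of these differences, so the members' signs are not independent of each other.

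**Figure D2:**
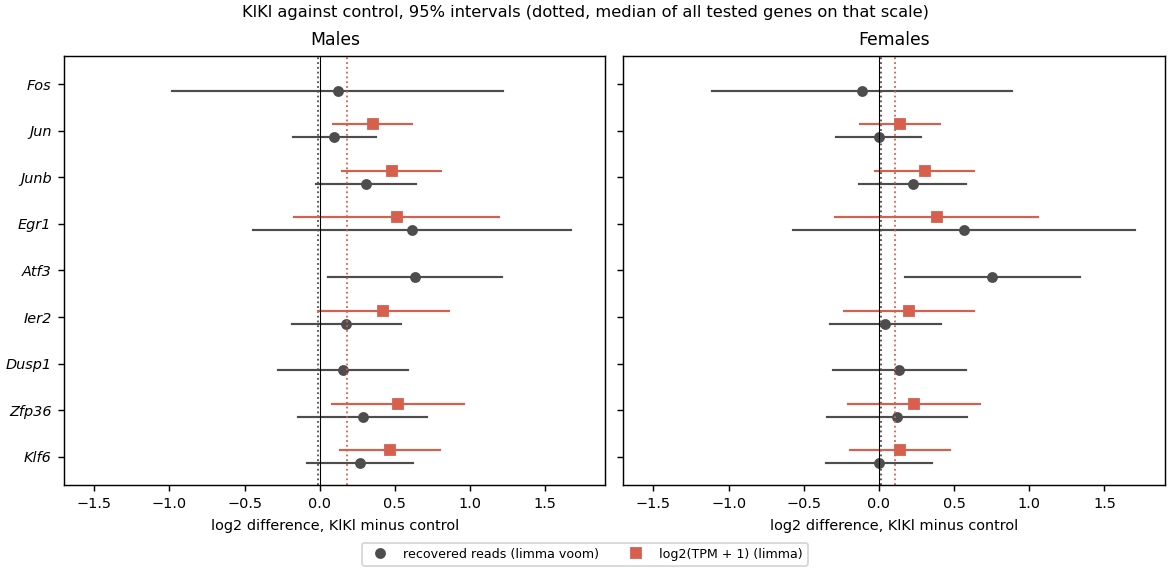
Log2 difference of each member, KlKl minus control, in males (left) and females (right), with 95% intervals from limma. Squares are the log2(TPM + 1) fit, circles the fit on recovered reads, and dotted lines the median of all tested genes on that scale. Atf3 is the member whose interval on reads lies above 0 in both sexes, and the TPM estimates lie to the right of those on reads except for Egr1.

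Atf3 showed the largest difference of any member on reads. It had 1.72, 1.42, 2.87 and 1.502 RPM in male KlKl kidneys, against 1.26, 1.37, 0.825 and 1.26 in male control kidneys. Every male KlKl kidney was above every male control kidney, which 2.05% of tested genes showed on reads. In females Atf3 had 3.43, 2.08, 2.97 and 2.84 RPM in KlKl kidneys, against 1.80, 1.25, 2.18 and 1.54 in control kidneys, and KlKl kidney 2 fell below control kidney 3. Behind these values stood only 15 to 45 reads per library. The log2 difference was 0.63 in males (SE 0.275, 95% interval 0.05 to 1.21, adjusted p = 0.764) and 0.75 in females (SE 0.276, 0.17 to 1.34, adjusted p = 1), in limma's fit on reads. Averaged over both sexes it was 0.69 (SE 0.195, 95% interval 0.28 to 1.10), with an unadjusted p of 0.0024 and an adjusted p of 0.529, and the gene did not pass over all 17648 tests. Without male KlKl 3 and female control 3 the male difference was 0.42.

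Egr1 had the next largest differences and by far the widest scatter. It had 8.29, 21.8, 8.04 and 5.49 RPM in male KlKl kidneys, against 4.57, 2.80, 11.6 and 9.12 in male control kidneys. In female KlKl kidneys it had 11.8, 17.5, 9.97 and 8.53, against 15.5, 12.1, 4.90 and 2.90 in female control kidneys. The groups overlapped in both sexes. On reads the log2 difference was 0.62 in males (95% interval −0.44 to 1.67, adjusted p = 0.942) and 0.57 in females (−0.57 to 1.70, adjusted p = 1). The male CFK controls were +/Kl and the male CFdk controls +/+, so name series and control genotype cannot be told apart there. Between the library name series the Egr1 difference changed sign in males, at 1.88 in CFK and −0.63 in CFdk kidneys, with 2 kidneys on each side. Single kidneys moved it as well, to 0.20 in males without KlKl 2 and 0.27 without control 2, and in females to 0.12 without control 4, 0.37 without KlKl 2 and 0.99 without control 1. The male value was 0.94 without control 3.

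Fos showed no difference that the reads could resolve. It had 0.737, 1.76, 1.34 and 0.588 RPM in male KlKl kidneys, against 0.661, 0.560, 1.44 and 1.31 in male control kidneys. In female KlKl kidneys it had 2.42, 3.99, 1.31 and 0.894, against 2.14, 3.43, 2.04 and 0.966 in female control kidneys. Both pairs of groups covered nearly the same range, from 9 to 48 reads per library. The log2 difference was 0.12 in males (95% interval −0.98 to 1.22) and −0.11 in females (−1.11 to 0.88), so that differences of nearly 1 log2 unit in either direction were not resolved. Fosb, a Fos relative that also pairs with Jun proteins, had 2 to 5 reads in male KlKl and 1 to 4 in male control kidneys, and 3 to 5 in female KlKl and 2 to 5 in female control kidneys. At that depth no difference could be detected.

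Junb was among the steadier members. It had 22.6, 19.3, 20.3 and 14.7 RPM in male KlKl kidneys, against 17.9, 13.1, 17.9 and 13.2 in male control kidneys. In female KlKl kidneys it had 16.3, 21.3, 21.4 and 23.6, against 20.5, 16.6, 17.2 and 15.4 in female control kidneys. In each sex 3 of the 4 KlKl kidneys lay above the highest control kidney. The difference on reads was 0.31 in males (95% interval −0.03 to 0.64, adjusted p = 0.842) and 0.22 in females (−0.13 to 0.58, adjusted p = 1). On log2(TPM + 1) it was 0.48 in males (SE 0.155, adjusted p = 0.209), and 0.26 there after scaling by the median ratio of all genes (adjusted p = 1). Jun itself differed less on reads, at 0.10 in males (−0.18 to 0.37) and −0.003 in females (−0.29 to 0.28), with the narrowest intervals of the 9 members. It averaged 32.7 ± 5.90 RPM in male KlKl and 30.3 ± 3.17 in male control kidneys, and 36.5 ± 3.103 in female KlKl and 36.8 ± 3.53 in female control kidneys (SD, n = 4 each).

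The feedback regulators Dusp1 and Zfp36 had their highest values in single kidneys, and their differences varied with the library name series. Dusp1 had 26.0, 35.5, 62.8 and 49.2 RPM in male KlKl kidneys, against 35.4, 37.4, 35.6 and 39.5 in male control kidneys. The male KlKl group held both the lowest and the highest kidney of the 16. In females Dusp1 had 35.5, 33.5, 43.6 and 47.2 RPM in KlKl kidneys, against 31.6, 36.8, 45.4 and 32.8 in control kidneys. Zfp36 had 28.9, 26.0, 50.9 and 35.3 in male KlKl kidneys, against 27.1, 29.9, 23.9 and 31.6 in male control kidneys. It had 20.3, 22.7, 23.96 and 38.8 in female KlKl kidneys, against 26.1, 18.7, 27.0 and 23.7 in female control kidneys. Male KlKl 3 and female KlKl 4 thus carried the highest Zfp36 of their sex and the highest Dusp1 as well. On reads the male difference was 0.16 for Dusp1 (95% interval −0.28 to 0.59, adjusted p = 0.975) and 0.28 for Zfp36 (−0.15 to 0.72, adjusted p = 0.929). Without male KlKl 3 and female control 3, the Dusp1 difference in males was −0.05. By name series, the Dusp1 difference was −0.26 in CFK and 0.57 in CFdk males, and 0.02 and 0.23 in females. For Zfp36 it was −0.06 in CFK and 0.63 in CFdk males, and −0.04 and 0.27 in females. Each of these values compares 2 kidneys with 2. In males the series cannot be told apart from the control genotype.

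Klf6 and Ier2 differed little between KlKl and control kidneys once reads were used. Klf6 had 42.0, 38.8, 63.5 and 50.9 RPM in male KlKl kidneys, against 36.7, 47.9, 33.5 and 42.4 in male control kidneys, a log2 difference of 0.27 (95% interval −0.08 to 0.62, adjusted p = 0.888). In female KlKl kidneys it had 67.6, 71.0, 66.99 and 72.6, against 52.6, 67.2, 73.2 and 89.6 in female control kidneys, a log2 difference of 0.00068 (−0.35 to 0.35). The female KlKl kidneys lay close together and the female control kidneys on both sides of them. Ier2 had 15.5, 18.4, 13.8 and 11.8 RPM in male KlKl kidneys, against 11.8, 10.1, 16.1 and 14.4 in male control kidneys (log2 difference 0.18, −0.18 to 0.54). In female KlKl kidneys it had 19.02, 23.9, 19.8 and 15.4, against 21.2, 19.5, 17.7 and 16.2 in female control kidneys (0.04, −0.33 to 0.41). By name series, the Klf6 difference was −0.05 in CFK and 0.59 in CFdk males, and 0.22 and −0.22 in females. For Ier2 it was 0.62 in CFK and −0.26 in CFdk males, and 0.07 and 0.04 in females.

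Markers of other cell types are given beside these values. The 7 macrophage and dendritic cell markers, none of which was at 0 in any library, summed to 218 to 332 RPM in male KlKl and 212 to 285 in male control kidneys, and to 288 to 323 in female KlKl and 208 to 265 in female control kidneys. On reads 0 of 7 of them passed in either sex, with 1 in males and 2 in females at an unadjusted p under 0.05, and 6 of 7 were higher in KlKl kidneys of both sexes. Of the 4 neutrophil markers found in the table, 2 were at 0 in some library, and male KlKl 3, the kidney with the highest Atf3 of the males and the highest Dusp1 and Zfp36 of all, also had the highest sum. The 4 haemoglobin genes that mark red cells summed to 83.7 to 529 RPM in male KlKl and 13.2 to 163 in male control kidneys, and to 23.2 to 79.1 in female KlKl and 5.12 to 217.5 in female control kidneys, with overlap in both sexes. The part of these cells in the members' values was not tested.

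Other genes of the early response were examined from lists of related genes. Of 16 listed AP-1 and related bZIP partners, 7 were tested on TPM and 14 on reads, and of 43 other primary response genes, 29 and 39. In each of the male, the female and the averaged comparison of KlKl with control, 0 genes of either list passed on either scale. At an unadjusted p under 0.05 in males there were 2 of 7 and 14 of 29 on TPM and 1 of 14 and 9 of 39 on reads, and in females 0 on either scale. Over all tested genes the shares were 19.9% on TPM and 6.19% on reads in males and 4.67% and 2.54% in females, which also stand behind the counts of the lists below. On reads in males 31 of 39 other primary response genes were higher in KlKl kidneys, with a median log2 difference of 0.19, and in females 28 of 39, with a median of 0.12, where 47.0% and 52.8% of all tested genes were. The largest of them on reads in males were Socs3, an inhibitor of cytokine signalling, at 0.96 (SE 0.401, adjusted p = 0.746), and Ccn1, a matricellular protein, at −0.92 (SE 0.199, adjusted p = 0.148). On TPM they were Cebpb, a bZIP factor of inflammation and differentiation, at 0.92 (SE 0.236, adjusted p = 0.166), and Gadd45g, a stress sensor, at 0.84 (SE 0.441, adjusted p = 0.283).

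Of the AP-1 partners, 10 of 14 were higher in KlKl males on reads, with a median of 0.13, and 11 of 14 in KlKl females, with a median of 0.09. The small bZIP protein Maff had the largest difference in males. It had 3.31, 3.91, 3.83 and 4.18 RPM in male KlKl kidneys, against 2.83, 1.93, 0.876 and 1.47 in male control kidneys (log2 difference 1.24, SE 0.305, adjusted p = 0.27). These groups did not overlap, which 2.05% of tested genes showed in the same direction on reads. In females Maff had 2.65, 2.83, 2.27 and 2.11 RPM in KlKl kidneys, against 2.49, 2.01, 0.545 and 1.35 in control kidneys (0.65, adjusted p = 1). Fosl2, a Fos relative, came next in males at 0.36 (adjusted p = 0.831), and on TPM Maf, a large Maf protein, differed by 0.41 (adjusted p = 0.246).

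The list of inflammatory early response genes had 10 entries, of which 2 were tested on TPM and 7 on reads, and 0 passed in any KlKl comparison, with 0 of 2 and 3 of 7 at an unadjusted p under 0.05 in males and 1 of 2 and 0 of 7 in females. On reads 6 of 7 were higher in KlKl males, with a median log2 difference of 0.33, and 7 of 7 in KlKl females, with a median of 0.65. Cxcl1, a chemokine that draws neutrophils, had 2.33, 1.64, 5.17 and 1.96 RPM in male KlKl kidneys, against 1.14, 0.747, 0.567 and 1.36 in male control kidneys (log2 difference 1.43, SE 0.373, adjusted p = 0.333), and its highest value was in male KlKl 3. Ccl2, a chemokine that draws monocytes, differed by 1.16 in males (SE 0.469, adjusted p = 0.72). On TPM the genes tested were Cxcl10, an interferon-induced chemokine, at 0.29 (adjusted p = 0.297), and Icam1, an adhesion molecule, at 0.19 (adjusted p = 0.332).

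The remaining lists gave no call in these comparisons. Of 23 upstream MAP kinases, SRF and CREB factors, 0 of 10 tested on TPM and 0 of 23 on reads passed in the male or the female comparison, and 8 of 23 in males and 13 of 23 in females were higher in KlKl kidneys on reads, with 3 of 10 and 0 of 23 at an unadjusted p under 0.05 in males and 0 in females. The largest in males were Rps6ka5, a kinase of CREB and histone H3, at 0.29 (adjusted p = 0.888) and Elk3, a ternary complex factor, at −0.23 (adjusted p = 0.898) on reads, and the kinases Mapk3 at 0.35 (adjusted p = 0.236) and Mapk14 at 0.28 (adjusted p = 0.209) on TPM. Of 9 other dual-specificity phosphatases, 0 of 3 and 0 of 9 passed (1 and 2 at an unadjusted p under 0.05 in males, 0 and 1 in females), with Dusp2 at 0.73 (adjusted p = 0.883) and Dusp8 at 0.46 (adjusted p = 0.781) on reads, and Dusp6 at 0.51 (adjusted p = 0.287) and Dusp7 at 0.36 (adjusted p = 0.209) on TPM. Of 11 heat shock genes, which report on protein stress, 0 of 11 passed on either scale (1 and 0 at an unadjusted p under 0.05 in males, 0 in females), and 4 of 11 were higher on reads in KlKl kidneys of either sex. Their largest in males were the chaperones Hspb1 at 0.37 (adjusted p = 0.918) and Hspe1 at −0.32 (adjusted p = 0.888) on reads, and Hspb1 at 0.55 (adjusted p = 0.237) and Hspa1b at 0.53 (adjusted p = 0.287) on TPM.

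Egr1 and Fos varied most among kidneys of a single group. The SD among animals of a group was 0.87 on the log2 reads scale for Egr1, and 5.58% of all tested genes had a larger one. Among the 4421 genes with mean reads within 2-fold of Egr1, whose median SD was 0.26, 2.04% had a larger SD. Fos followed with an SD of 0.77, exceeded by 8.11% of tested genes and by 15.9% of the 3344 genes of like depth, so that part of its scatter is shared by genes with so few reads. The SD was 0.33 for Zfp36 and 0.33 for Dusp1, exceeded by 15.5% and 14.9% of genes of like depth. It was 0.18 for Jun, 0.23 for Junb, 0.25 for Ier2 and 0.25 for Klf6, exceeded by 30.2% to 60.9% of genes of like depth. The SD of Atf3, 0.36, was exceeded by 78.1% of genes with as few reads.

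**Figure D3:**
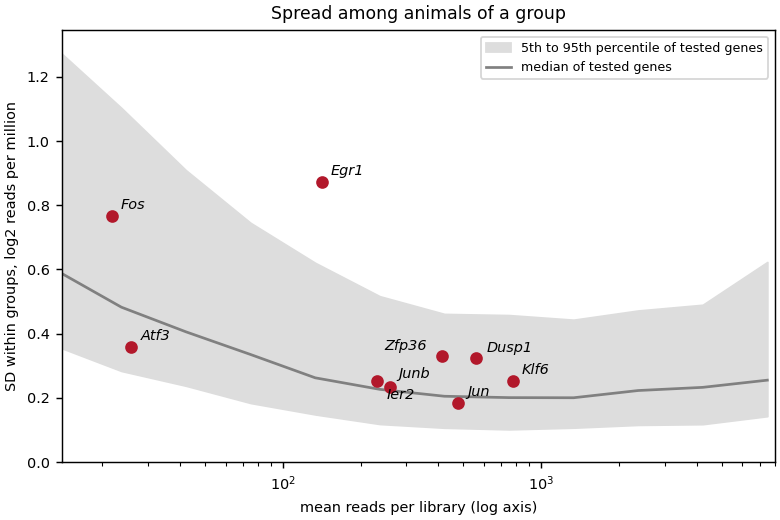
SD among animals within groups on the log2 RPM scale, against mean reads per library on a log axis, for the 9 members tested on reads (points). The grey band runs from the 5th to the 95th percentile of all tested genes and the grey line is their median. Egr1, at 0.87, lies above the band at its depth, and Fos, at 0.77, lies within it.

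Fos, Egr1 and Ier2 were high and low in the same kidneys. After removal of each group's mean, Fos and Egr1 correlated on log2(TPM + 1) across the 16 kidneys with Pearson's r = 0.80 and Spearman's rho = 0.83 (permutation within groups, adjusted p = 0.00198 and 0.00072 over 9 relations). For Fos and Ier2 they were 0.79 and 0.79 (permutation, adjusted p = 0.00243 and 0.00297). Of the 9 relations of Fos with the other members these 2 passed. The permutation shuffled kidneys within groups but across the library name series. A shift shared by the kidneys of a series therefore enters r and its p. Without the 2 kidneys farthest from the median of Fos, female control 2 and female KlKl 2, r was 0.81 for Egr1 and 0.81 for Ier2, and on reads it was 0.81 for both.

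The relation was present in both sexes and less even between the library name series, where each group has 2 kidneys and the 8 values of a series amount to 4 independent differences. With Egr1, r was 0.89 in males and 0.78 in females (n = 8 each), and 0.60 among CFK and 0.96 among CFdk kidneys. With Ier2, r was 0.85 in males and 0.81 in females, and 0.32 among CFK and 0.87 among CFdk kidneys. On TPM before removal of group means, male KlKl 2 and female KlKl 2 had the highest Fos, Egr1 and Ier2 of their sex. Male control 2 and female control 4 had the lowest of theirs on that scale. After that removal, as in the correlations, Fos and Ier2 were lowest in KlKl 4 of either sex. On reads, Fos and Ier2 were the lowest of the females in female KlKl 4.

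The relations of the other 7 members with Fos did not pass over the 16 kidneys, and several of them differed between the name series. With Jun, the AP-1 partner of Fos, r was 0.40 (rho 0.43, permutation, adjusted p = 0.433 and 0.334), and 0.02 on reads. With Junb it was 0.28 (permutation, adjusted p = 0.666), and with Fosb, Atf3, Dusp1, Zfp36 and Klf6 between −0.15 and 0.12. Among CFdk kidneys, however, r with Fos was 0.91 for Dusp1, 0.89 for Atf3, 0.83 for Junb and 0.80 for Jun, beside 0.87 for Ier2. Among CFK kidneys it was 0.42 for Dusp1, −0.86 for Atf3, −0.40 for Junb, 0.18 for Jun and −0.81 for Zfp36. The 8 relations of Dusp1 on reads were a choice made after the values were seen. Among them the one with Zfp36 was the strongest, at r = 0.70 and rho = 0.66 (permutation, adjusted p = 0.172 and 0.185), and it did not pass. It was 0.83 in males, 0.55 in females, −0.63 in CFK kidneys, 0.69 in CFdk kidneys and 0.52 without male KlKl 3. Dusp1 with Fos was at −0.10 on reads over the 16 kidneys, but at 0.76 among CFK and 0.80 among CFdk kidneys, so the pooled value does not hold within the series.

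**Figure D4:**
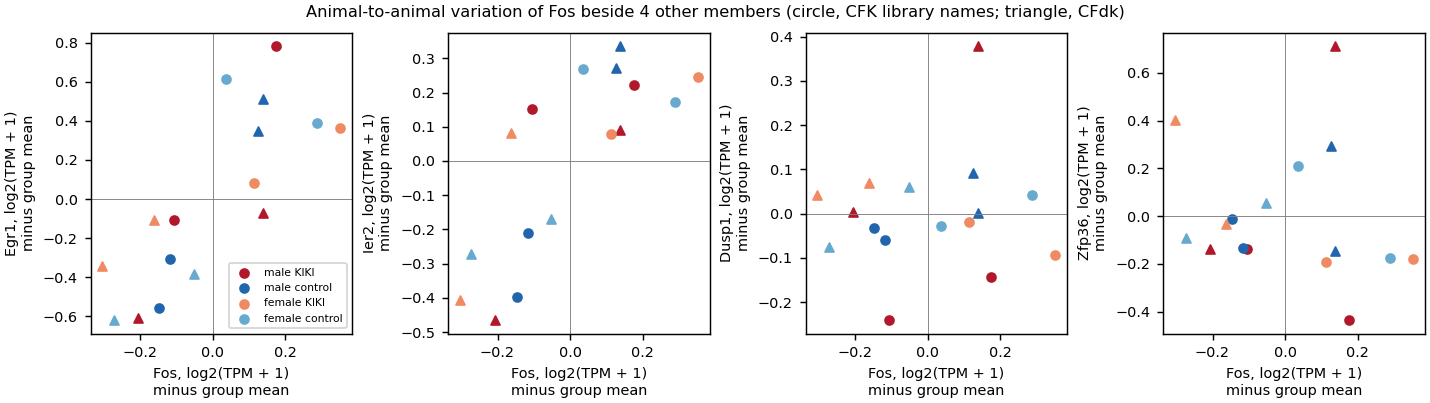
Deviation of 4 members from their group means (y axes, log2(TPM + 1)) against that of Fos (x axes) in each of the 16 kidneys, coloured by group, circles for CFK and triangles for CFdk libraries. Egr1 and Ier2 rise along the diagonal with r = 0.80 and 0.79, while Dusp1 and Zfp36 show no such slope, with r = 0.12 and −0.15.

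**Figure D5:**
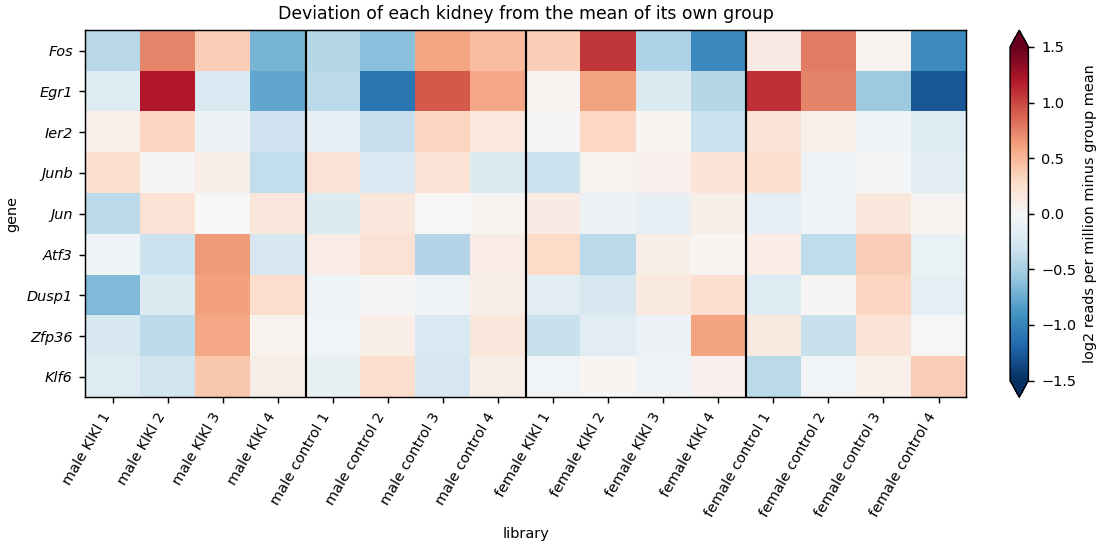
Deviation of every kidney from the mean of its group on the log2 RPM scale, genes down the page and kidneys across, red above and blue below the mean. Fos and Egr1 share their strong colours in most kidneys, Ier2 repeats them in paler form, and Atf3, Dusp1, Zfp36 and Klf6 are red together in male KlKl 3.

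In females, Fos and Egr1 also separated the library name series. On TPM the 4 CFK kidneys had Fos at 0.576 and 0.858 (KlKl) and 0.456 and 0.735 (control). The 4 CFdk kidneys had Fos at 0.302 and 0.180 (KlKl) and 0.370 and 0.176 (control). Egr1 was at 1.85 and 2.47 (KlKl) and 2.16 and 1.70 (control) in the CFK kidneys. In the CFdk kidneys it was at 1.505 and 1.13 (KlKl) and 0.582 and 0.346 (control). For both genes every CFK kidney was above every CFdk kidney. This was noticed after the values were seen and is given without a test, and in males the series overlapped. The share of all tested genes that separate the series in females was not counted, so how unusual this is for a gene is not known.

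Genes with the pattern most like the members' were ranked by Pearson's r with the mean of the 6 members tested on TPM, group means removed, over 16 kidneys and 6104 named genes. The 10 highest were Pi4kb, Cirbp, Plekhm2, Carhsp1, Cgnl1, Rassf7, Numa1, Pias3, Pea15a and Dgcr2, at r = 0.94 to 0.95. The median over all 6104 genes was 0.42, and the members' own r with that mean was 0.43 for Klf6 to 0.73 for Ier2. On this scale, therefore, the genes closest to the mean of the members were closer to it than any member was. Without male KlKl 3 these 10 genes were at r = 0.84 to 0.91, with ranks from 7 (Cirbp) to 128 (Pea15a). Ranked on reads, a choice made after these values were seen, the mean of Fos, Egr1 and Ier2 was closest to Ifi202b (r = 0.88), Olfml2b (0.86) and Rilpl2 (0.86), where the median over 13804 genes was 0.03. The mean of Dusp1 and Zfp36 was closest to Pik3r1 (r = 0.93). Among the listed early response genes, Ptgs2 (0.62) and Plk2 (0.62) came nearest to the Fos, Egr1 and Ier2 mean, and Per1 (0.84), Nfkbia (0.81) and Egr2 (0.77) to the Dusp1 and Zfp36 mean. Of the 13804 genes, Ptgs2 and Plk2 ranked 216 and 221, and the 95th percentile of r was 0.50. Per1, Nfkbia and Egr2 ranked 11, 24 and 59, with a 95th percentile of 0.55. At the opposite end were Plk3 (−0.82), Sgk1 (−0.75), Creb1 (−0.71) and Klf4 (−0.70) for the Fos, Egr1 and Ier2 mean, and Crem (−0.71) and Plk2 (−0.61) for the Dusp1 and Zfp36 mean.

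The second comparison sets males against females within a genotype. On reads 1 of 9 members was lower in KlKl males than in KlKl females, where 13.7% of tested genes were, and 2 of 9 were lower in control males than in control females, where 18.5% of tested genes were. No member passed as higher in males on reads, where 14.7% of tested genes did among KlKl and 20.9% among control kidneys, and 0 of 9 were higher at an unadjusted p under 0.05 in limma's fit. On TPM, a scale on which the median of all genes was 0.332 higher in KlKl males and 0.257 higher in control males, 1 of 6 members was higher in KlKl males (50.9% of tested genes) where 0 of 6 were lower, also at an unadjusted p under 0.05 (3.72% of tested genes were lower at the adjusted threshold). Among controls 0 of 6 passed (44.3% of tested genes were higher and 8.30% lower), and 2 of 6, Klf6 and Zfp36, had an unadjusted p under 0.05 (58.5%).

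Klf6 had the smallest adjusted p of the 9 members between the sexes on reads, and Fos, given below, a larger but less certain difference. The per-kidney values given above lie between 38.8 and 63.5 RPM in male KlKl and between 66.99 and 72.6 in female KlKl kidneys, and between 33.5 and 47.9 in male control and 52.6 and 89.6 in female control kidneys. Males and females did not overlap in either genotype, which 14.9% of tested genes showed in the same direction among KlKl and 16.3% among control kidneys. The log2 difference, males minus females, was −0.54 in KlKl kidneys (SE 0.167, adjusted p = 0.0246) and −0.80 in control kidneys (SE 0.167, adjusted p = 0.00142). Among KlKl kidneys it no longer passed without male KlKl 1, male KlKl 2, female KlKl 2 or female KlKl 4 (adjusted p = 0.0551 to 0.0876). On log2(TPM + 1) it was −0.05 (adjusted p = 0.799) in KlKl and −0.38 (adjusted p = 0.0542) in control kidneys. Scaled by the median ratio it was −0.45 (adjusted p = 0.0339) and −0.71 (adjusted p = 0.00199), so the direction was the same on each of the 3 scales and the call was made on those that centre on the median gene. Whether the sex difference of Klf6 differs between genotypes was tested as the interaction on TPM, 0.33 (SE 0.221, adjusted p = 1).

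Marker genes of fibroblasts and of smooth muscle and pericytes had the same direction as Klf6. On reads 13.7% of tested genes passed as lower in males among KlKl and 18.5% among control kidneys. The 4 fibroblast markers, none at 0 in any library, passed as lower in males in 4 of 4 cases in both genotypes on reads. They summed to 120 to 196 RPM in male KlKl and 269 to 313 in female KlKl kidneys, and to 116 to 163 in male control and 239 to 371 in female control kidneys. Of the 4 smooth muscle and pericyte markers 3 passed as lower in males in both genotypes, with sums of 102 to 120 in male KlKl and 187 to 218 in female KlKl kidneys. Among controls the sums were 87.1 to 118 in males and 105 to 210.1 in females, which overlapped through female control 3. The 5 endothelium markers summed to 166.3 to 241 RPM in male KlKl and 211.4 to 225.5 in female KlKl kidneys, which overlapped. Their sums among controls, 181.1 to 248.4 in males and 205.2 to 287 in females, overlapped as well. The part of these cells in the Klf6 difference was not tested.

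Ier2 was lower in control males than in control females on reads, with a log2 difference of −0.52 (SE 0.175, adjusted p = 0.0253), with 10.1 to 16.1 RPM in males and 16.2 to 21.2 in females and no overlap. It no longer passed without male control 1, male control 2, female control 1 or female control 2 (adjusted p = 0.0594 to 0.0821). Among KlKl kidneys the difference was −0.39 (adjusted p = 0.0949), with 11.8 to 18.4 in males and 15.4 to 23.9 in females. On log2(TPM + 1) the Ier2 difference was −0.16 among controls and 0.07 among KlKl kidneys, and neither passed. Fos had lower mean reads in males, 1.11 ± 0.543 in male KlKl and 2.15 ± 1.38 in female KlKl kidneys, and 0.994 ± 0.447 in male control and 2.15 ± 1.009 in female control kidneys (SD, n = 4 each). Its log2 difference was −0.84 among KlKl (adjusted p = 0.21) and −1.07 among control kidneys (adjusted p = 0.0966), and it did not pass. With the replicate number as a block the value among controls was −1.22 (adjusted p = 0.0438), and without female control 4 it was −1.39 (adjusted p = 0.0362).

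Zfp36 went the other way and rested on the scale. On log2(TPM + 1) it was 0.78 higher in KlKl males than in KlKl females (SE 0.207, adjusted p = 0.00512), with 7.30 to 17.3 TPM in males and 4.71 to 7.63 TPM in females. Taken relative to the median of all genes the difference was 0.36 (adjusted p = 0.185), and on reads 0.41 (SE 0.211, adjusted p = 0.149). Among controls it was 0.49 on TPM (adjusted p = 0.0555) and 0.25 on reads (adjusted p = 0.375). Dusp1 differed by 0.06 and 0.04 on reads among KlKl and control kidneys, with 95% intervals of −0.38 to 0.49 and −0.40 to 0.48.

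Sex differences among other primary response genes followed the scale. On reads 12 of 39 were lower and 4 of 39 higher in KlKl males, and 13 of 39 were lower and 1 of 39 higher in control males, while on TPM the split turned to 8 of 29 higher and 4 of 29 lower among KlKl and 7 of 29 higher and 3 of 29 lower among control kidneys. Over all tested genes on reads, 13.7% were lower and 14.7% higher among KlKl, and 18.5% lower and 20.9% higher among control kidneys. On TPM 50.9% were higher and 3.72% lower among KlKl, and 44.3% higher and 8.30% lower among control kidneys. The largest on reads among KlKl kidneys were Cebpd at −1.98, Nr4a1 at −1.62, Nr4a2 at −1.46 and Klf2 at −1.21 on the lower side, and Errfi1 at 1.22, Tnfaip3 at 1.06, Bhlhe40 at 1.02 and Sik1 at 0.73 on the higher side. Among controls they were Cebpd at −2.49, Sgk1 at −1.45, Nfkbia at −1.18 and Klf2 at −1.14, with Tnfaip3 at 0.86. Nr4a1 and Nr4a2 are orphan nuclear receptors of the early response, and Cebpd is a bZIP factor of the acute phase. Ptgs2, the inducible cyclooxygenase on the inflammatory list, was also lower in males, with a log2 difference on reads of −2.24 among KlKl (adjusted p = 0.0242) and −1.89 among control kidneys (adjusted p = 0.0477).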

How the data were processed

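The authors deposited TPM for 30277 genes in 16 kidneys, 1 library per animal, made with Partek on mm39 per the submitters' processing notes, and no source used here names the aligner, the annotation release or the counting rule. A Kl row given again with the same values was counted once, and 0 columns belonged to other samples. The deposited TPM were found to be reads plus 0.0001, divided by gene span and scaled to 309446 per library. Reads were recovered from that relation: 78.8% to 85.6% of the values of 20 reads or fewer came out whole within 0.1 reads. Each library held 8208067 to 20104893 reads, which sets the precision of the low members.

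Differences were fitted with limma 3.58.1 in R 4.3.3, with a mean for each of the 4 groups over all 16 libraries (12 residual degrees of freedom), on log2(TPM + 1) with a mean-variance trend for the 8059 genes that reached 1 TPM in 4 libraries. Adjusted p-values are Benjamini-Hochberg over all genes tested, with a threshold of 0.05. A difference on log2(TPM + 1) understates that of genes with low TPM. The second scale is limma's voom on the recovered reads with TMM scaling, for the 17648 genes that reached 10 reads in 4 libraries. Correlations used 100000 permutations within groups, two-sided. The alternatives were another pseudocount, another filter, median-ratio scaling, library weights, age, name series, replicate number, the libraries of a contrast alone, and libraries left out. The fits were tested on simulated data. P-values measure the spread among the animals of these groups.

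The 10 members, the gene lists and the cell type markers were chosen with earlier results of these data known. All members are named, and of each other list the genes that passed (up to 4 by size in each direction) or else the 2 largest in the male comparison, on either scale, except for a result that is not reported here. Motifs were searched in 250 bases of RefSeq sequence (GRCm38.p6), and exon lengths came from GENCODE release M21 by gene name. Replicate numbers were not treated as pairs in the reported fits, since same-numbered animals did not deviate together, with correlations of −0.222 to 0.219.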

Additional observations from a re-analysis of the deposited data

How the results depend on the processing

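Of 638 comparisons of member differences on TPM with an alternative, 601 kept their direction and side of the threshold, and of 400 on reads 379 did. Both counts include fits that left out a library from outside the contrast, which could hardly move the difference. The counts therefore overstate how steady the differences were. No member was called in the male comparison of KlKl with control except with library weights (1, Jun) and with age as a covariate (1, Junb), and averaged over the sexes except with library weights (2) and age (1). Between males and females among KlKl kidneys, where Zfp36 was the 1 member called on TPM, 3 were called with library weights, 2 with age, and 1 to 2 when single libraries were left out. Among controls, where 0 were called, there were 2 with a pseudocount of 0.1, median-ratio scaling, voom on reads, library weights, the name series as a covariate, the libraries of the contrast alone, or without female control 3 and male KlKl 3, 1 with age, and 0 to 2 when single libraries were left out. With the replicate number as a block the counts of members called were unchanged on TPM (0 among controls), while Fos on reads passed between control males and females (log2 difference −1.22, adjusted p = 0.0438). Leaving out single libraries on reads, Klf6 among KlKl kidneys ranged over adjusted p = 0.00589 to 0.0876 and Ier2 among controls over 0.0161 to 0.0821. Signs turned for Jun in females, at −0.0155 with median-ratio scaling and −0.00301 on reads, for Klf6 in females at −0.0066 with median-ratio scaling, and on reads in males without female control 3 and male KlKl 3 for Fos at −0.0072 and Dusp1 at −0.0519. When single libraries were left out, values ranged from −0.0513 to 0.372 for Dusp1 in males, −0.16 to 0.36 for Fos in males and −0.47 to 0.23 for Fos in females on reads, and from −0.223 to 0.0589 for Klf6 between KlKl males and females on TPM. The cause was not tested. The 2 relations of Fos that passed numbered 2 to 3 under the alternatives. Depth limits Fosb (1 to 5 reads), Fos and Atf3, and counting uncertainty covers overlapping Ergic1 and Prdx2.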
